A study of Mus musculus with 4 samples.

Results

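The barcodes described here were those in which Hba-a1, Hba-a2, Hbb-bs and Hbb-bt together held at least 50% of the unique molecular identifiers (UMIs, the count of distinct captured RNA molecules) and which had at least 100 UMIs. They numbered 903 of the 5332 barcodes of 4 libraries. The libraries were made from tumors of Swiss albino mice carrying Dalton's lymphoma ascites (DLA), a transplanted mouse lymphoma injected into the peritoneal cavity. Control 1 and Control 2 came from DLA-bearing mice that the labels call untreated and a supplementary figure legend calls vehicle controls. Treated 1 and Treated 2 came from DLA-bearing mice given SP11, an inhibitor of the chaperone HSP90, at 30 mg/kg by mouth for 17 days. Every mouse carried the tumor, and no tumor-free mouse was sampled. Age and sex are not given in the sources used here, and the study describes the libraries of a group as biological replicates from independent sets, without saying how many animals each holds. The p-values measure the spread between these samples. The tissue protocol in the labels included red cell lysis buffer, a step that removes red cells, and whether it acted alike in the 4 samples cannot be told from the files.

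Red blood cells carry oxygen on hemoglobin, a tetramer of alpha and beta globin chains that each hold a heme group. Their precursors expel the nucleus and become reticulocytes, which keep a pool of messenger RNA made up largely of globin transcripts and clear their mitochondria and ribosomes before they become mature red cells. In single-cell libraries of blood-containing tissue these cells therefore appear as barcodes with few genes and a very high share of globin molecules.

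The 4 libraries differed in size. Control 1 had 977 barcodes, Control 2 had 595, Treated 1 had 2277 and Treated 2 had 1483, with 9646197 to 13632163 UMIs in a library. Below, sets of 4 values run in the order Control 1, Control 2, Treated 1, Treated 2. Every barcode held at least 500 UMIs, so the limit of 100 UMIs removed none. The libraries shared 60 to 359 barcode sequences in each pair, which was 6.14% to 25.5% of the barcodes of a library. Why they shared sequences was not tested, and it limits how far the libraries can be taken as independent. Of the 359 sequences common to Treated 1 and Treated 2, 73 were hemoglobin-dominated in the former, 96 in the latter and 16 in both, beside 19.5 from the product of the shares. Among barcode sequences found in 1 library alone, an added alternative, the hemoglobin-dominated share was 1.40%, 0.872%, 20.4% and 28.1%.

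Because the rule rests on the 4 adult globin genes, their start sites are shown first. Each line gives the 150 bases before the RefSeq start in assembly GRCm38.p6, 5′ to 3′ on the strand of the gene, with the motif TATAA, the motif CCAAT and the motif CACCC in capitals. Both strands were searched, and where the motif CCAAT lies on the other strand its complement is capitalised. The windows lie at chr11:32283522-32283671 (plus strand), chr11:32296342-32296491 (plus strand), chr7:103827929-103828078 (minus strand) and chr7:103813924-103814073 (minus strand).
Hba-a1: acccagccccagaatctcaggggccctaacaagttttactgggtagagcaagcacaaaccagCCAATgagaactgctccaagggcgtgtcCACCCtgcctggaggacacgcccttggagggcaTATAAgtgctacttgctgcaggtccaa
Hba-a2: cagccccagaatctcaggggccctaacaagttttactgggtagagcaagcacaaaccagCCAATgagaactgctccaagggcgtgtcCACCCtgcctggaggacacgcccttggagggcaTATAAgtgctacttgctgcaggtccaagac
Hbb-bs: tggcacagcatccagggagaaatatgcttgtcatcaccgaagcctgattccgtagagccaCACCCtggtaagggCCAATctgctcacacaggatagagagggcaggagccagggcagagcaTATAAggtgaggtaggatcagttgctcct
Hbb-bt: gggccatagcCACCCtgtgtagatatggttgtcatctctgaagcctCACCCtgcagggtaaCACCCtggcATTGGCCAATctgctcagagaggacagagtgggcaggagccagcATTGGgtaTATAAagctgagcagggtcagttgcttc

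All 4 windows held the 3 motifs on the strand of the gene. The TATAA match began 27 to 30 bases before the start in each. Over 32851 windows of the same length in RefSeq, TATAA was found in 14.2%, CCAAT in 24.5% and CACCC in 37.4%. GATAAG, searched in the same way, was in 3.75% of windows and in 0 of the 4, which says only that these letters are not in these 150 bases.

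In the reference assembly the paired copies of each chain are nearly the same gene. The globin sequences of the Swiss albino mice themselves were not examined. In the annotation (GENCODE M21, the same assembly) Hba-a1 (ENSMUSG00000069919) lies at chr11:32283511-32284465 and Hba-a2 (ENSMUSG00000069917) at chr11:32296489-32297298. Their coding sequences were identical at 428 of 429 bases and encode the same 142 residues. Hbb-bs (ENSMUSG00000052305, chr7:103826534-103828096) and Hbb-bt (ENSMUSG00000073940, chr7:103812524-103813996) were identical at 443 of 444 coding bases and encode the same 147 residues. The 3′ untranslated regions of the beta copies had 69.4% identity, while those of the alpha copies differed by 16 gap bases and 0 mismatches. How the authors' counting divided reads between near-identical copies was not tested, so counts of single copies are less certain than sums of a chain.

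Hemoglobin-dominated barcodes made up 1.64% of Control 1 (16 barcodes, exact 95% Clopper-Pearson interval 0.939% to 2.65%) and 1.01% of Control 2 (6 barcodes, 0.371% to 2.18%). They made up 20.6% of Treated 1 (469 barcodes, 19.0% to 22.3%) and 27.8% of Treated 2 (412 barcodes, 25.5% to 30.1%). The intervals cover counting error only. Both treated libraries lay above both controls, with means of 24.2% ± 5.08 (SD, n = 2) and 1.32% ± 0.445 (n = 2). The 2-sided exact permutation test over samples gave p = 0.33, the smallest that 2 against 2 samples can give. The share is one of all barcodes, so more red cells and fewer other cells, or more RNA per red cell above the calling limit, cannot be told apart. Counted as UMIs, the 4 genes held 0.181% and 0.0964% of the control libraries and 4.03% and 5.05% of the treated ones. Of those molecules, 85.2%, 78.8%, 70.1% and 86.2% lay inside the hemoglobin-dominated barcodes.

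**Figure D1:**
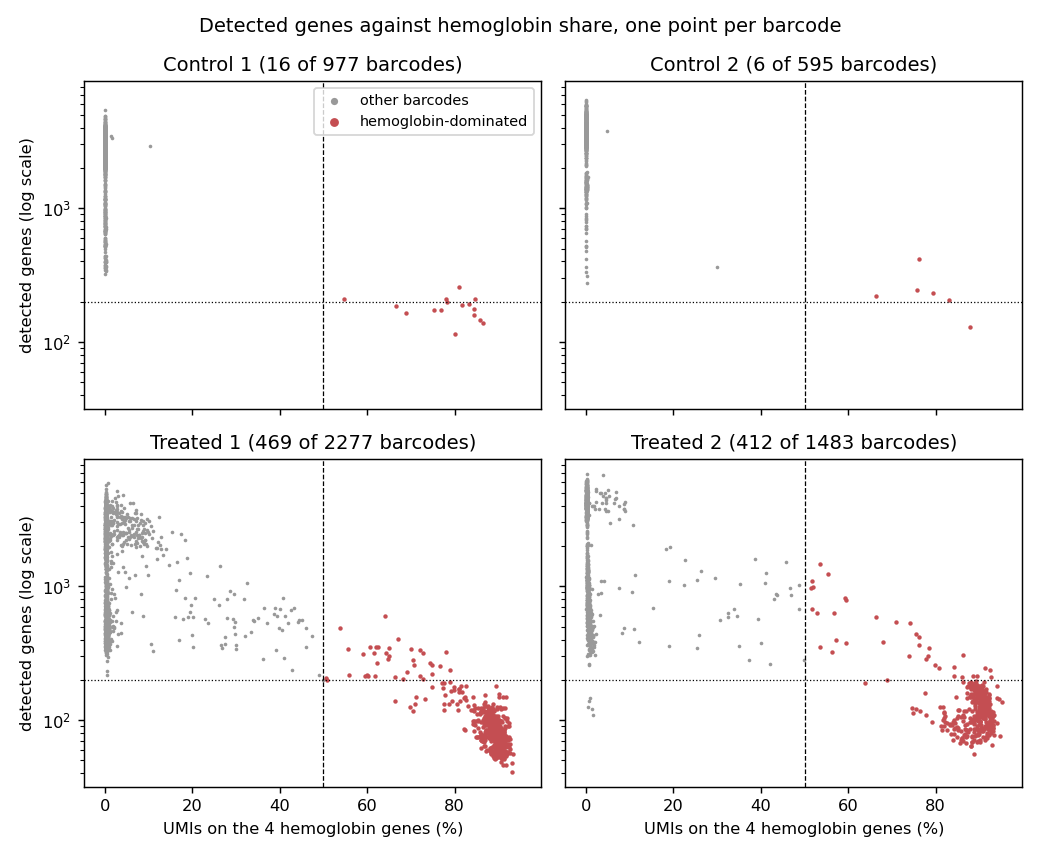
Detected genes per barcode (log scale) against the share of UMIs on the 4 hemoglobin genes, 1 panel per library, with the 50% rule dashed and 200 genes dotted. The treated libraries have a dense group near 90% hemoglobin and around 100 genes, and a thin trail of barcodes joins it to the other barcodes.

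The limit of 50% fell in a sparse stretch. Over all libraries 30 barcodes had a share of 40% to 50%, with a median of 582.5 genes, and 22 had 50% to 60%, with a median of 440.5 genes. The nearest barcode below the limit was at 49.8% and the nearest above at 50.7%. Most members lay far above it, with median hemoglobin shares of 80.6%, 77.7%, 88.8% and 89.9%. No control barcode reached 90%, whereas 6.46% of the barcodes of Treated 1 and 13.6% of Treated 2 did.

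The split at 200 detected genes, the lower limit the study applied to its cells, cut through this population. Of the 903 barcodes, 820 (90.8%) had fewer than 200 genes and 83 had 200 or more. In Treated 1 the former were 432 of 469 (92.1%, exact interval 89.3% to 94.4%) and in Treated 2 375 of 412 (91.0%, 87.8% to 93.6%). The controls were too few for a narrow estimate, with 12 of 16 in Control 1 (75.0%, 47.6% to 92.7%) and 1 of 6 in Control 2 (16.7%, 0.421% to 64.1%). Seen from the other side, 820 of the 826 barcodes with fewer than 200 genes in the 4 matrices were hemoglobin-dominated (99.3%). The study's filters, at least 200 genes and at most 10% mitochondrial UMIs, left 4, 5, 36 and 36 of them. After that filter they were 0.437% and 0.883% of the control barcodes and 1.97% and 3.30% of the treated ones. For each group the study reported fewer captured DLA cells than the deposited matrices hold as barcodes. Which of these barcodes were among the cells it analysed is therefore not known.

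The number of genes is tied to the rule, since a barcode with most of its UMIs on 4 genes has few left for others, and is given as a description. The barcodes had medians of 180.5, 226, 88 and 121.5 genes, from median depths of 1298.5, 1440.5, 897 and 1646.5 UMIs. When each barcode was thinned to 500 UMIs, with none left out, the medians were 87.5, 98, 53 and 49 genes. The other barcodes thinned in the same way had medians of 341 to 351 genes. Outside hemoglobin the median barcode held 233.5, 312.5, 102 and 151.5 UMIs.

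**Figure D2:**
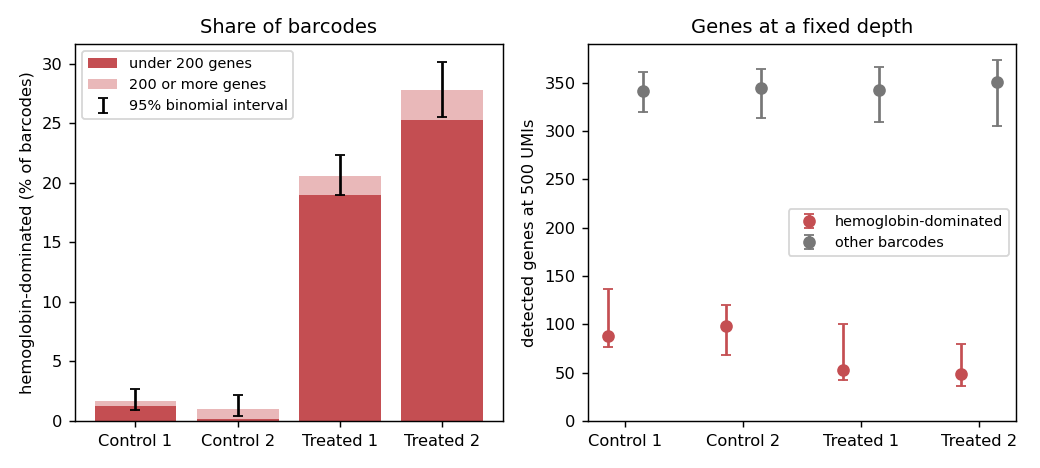
Left, hemoglobin-dominated barcodes as a percentage of all barcodes of each library, split at 200 detected genes, with the 95% binomial interval of the whole bar. Right, median detected genes after thinning to 500 UMIs, with bars from the 10th to the 90th percentile over barcodes, at 49 to 98 for the hemoglobin-dominated and 341 to 351 for the other barcodes.

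The balance of the chains overlapped between the groups. The alpha to beta ratio of summed UMIs was 0.655, 0.636, 0.688 and 0.600. The treated values lay on either side of the control values. The rule picked these barcodes by the same genes, so this is a description from which no test is read. UMIs of different transcripts are not captured equally, so the ratio is not one of molecules in the cell. Between barcodes the alpha share of hemoglobin UMIs had an SD of 3.90 percentage points in Treated 1 and 4.41 in Treated 2, against 1.81 and 1.44 from counting alone.

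Hbb-bt, the minor beta transcript in these libraries, held 8.19%, 4.15%, 7.59% and 8.23% of beta UMIs. Control 2, with 6 barcodes, lay lowest, and the values of the groups overlapped, again a description from which no test is read. Within a library the share followed the depth of the barcode. Across barcodes its Spearman correlation with total UMIs was 0.67 in the 469 barcodes of Treated 1, 0.81 in the 412 of Treated 2 and 0.80 in the 16 of Control 1. The barcodes of 1 library share its chemistry and free RNA, and their depth enters both measures, so these are descriptions. Below the median depth of its library Hbb-bt held 5.47% of beta UMIs in Treated 1 and 4.77% in Treated 2, and at or above it 8.90% and 9.88%. Between barcodes its SD was 3.01 and 3.84 percentage points, against 1.23 and 0.966 from counting.

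Hba-a2 separated barcodes into 2 sets. It held 1.78% of alpha UMIs in Control 1, 2.30% in Treated 1 and 2.45% in Treated 2, but 22% in Control 2 (exact interval 20.5% to 23.6%). Its 6 barcodes were not uniform, since 5 had 21.5% to 30.9% and the other had 4.74%. All 16 of Control 1 were at or under 3.02%. In the treated libraries most barcodes were at or under 5.08%, but 7 of 469 in Treated 1 had 18.4% to 26.1% and 3 of 412 in Treated 2 had 18.1% to 27.7%. No hemoglobin-dominated barcode of any library lay between 5.08% and 18.1%, on 98 alpha UMIs or more each. The limit of 10% that counts the sets was placed after the values were seen. None of the 10 treated barcodes of the high set carried a barcode sequence of Control 2. Only 6.50% of all barcodes of Treated 1 and 6.61% of Treated 2 did, so 0 of 10 says little. Of the 7 in Treated 1, 1 had a sequence of Control 1 and 1 a sequence of Treated 2. Of the 3 in Treated 2, 1 had a sequence of Treated 1. Of the 10, 9 had fewer than 200 genes. Outside the hemoglobin-dominated barcodes, among those with at least 50 alpha UMIs, the high set held 0 of 3, 2 of 2, 4 of 240 and 1 of 76, and in Treated 1 the ranges there came close, at 9.38% and 10.8%. Whether the sets differ in expression or in how reads were assigned between the copies was not tested.

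**Figure D3:**
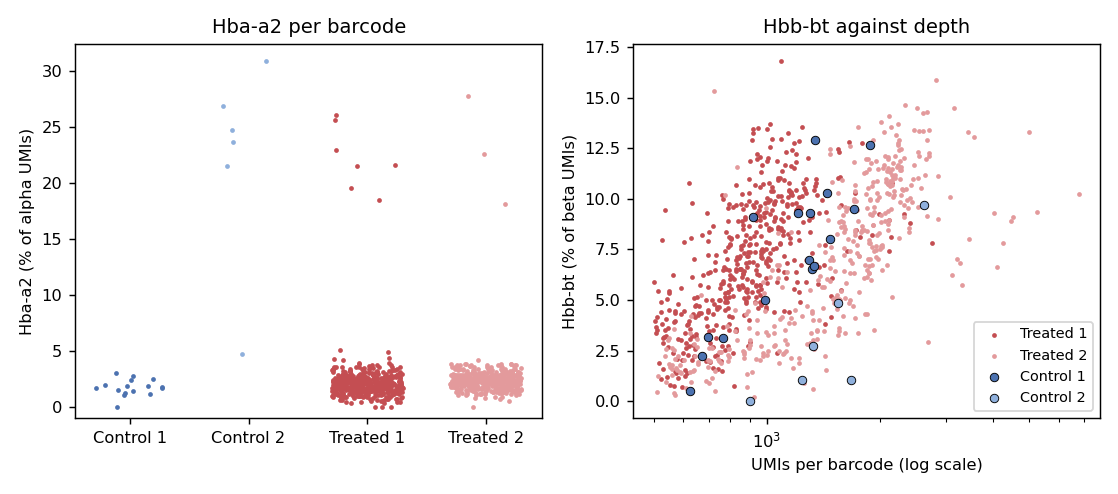
Left, Hba-a2 as a percentage of alpha globin UMIs in each hemoglobin-dominated barcode by library, with points spread sideways for sight and an empty stretch between 5.08% and 18.1%. Right, Hbb-bt as a percentage of beta globin UMIs against UMIs per barcode (log scale), where Spearman's rho was 0.67 in Treated 1 and 0.81 in Treated 2.

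The non-globin RNA of these barcodes was read as UMIs per 10000 UMIs outside the 4 globin genes, a level used for all values in this and the next paragraphs. It rested on 3799, 2013, 61288 and 88320 such UMIs. Because the barcodes were picked by their RNA, their levels against other barcodes are descriptions without a test. With 16 and 6 control barcodes no test of treated against control was made on these levels. Fewer than 4 UMIs stand behind many control values, and 3 UMIs correspond to levels of 7.90, 14.9, 0.489 and 0.340. The 5 non-globin marker genes given with the rule (Alas2, Bpgm, Fech, Mkrn1 and Ube2l6), which were chosen with results of these libraries known and so are no independent check of the erythroid label, summed to 76.3, 59.6, 158 and 206 per 10000, against 1.02, 1.03, 1.27 and 1.33 in the other barcodes.

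Heme synthesis genes were led by Alas2, the first and rate-limiting enzyme of the erythroid pathway (chrX:150547375-150570638). Its level was 44.7, 44.7, 62.7 and 80.0, from 17, 9, 384 and 707 UMIs. In the other barcodes of Treated 1 and Treated 2 it was 0.109 and 0.0809, so that the level in hemoglobin-dominated barcodes was 573 and 990 times higher. Of all Alas2 UMIs of those libraries, 73.3% and 87.2% lay in them. An Alas2 UMI was found in 56.3% and 83.3% of the hemoglobin-dominated barcodes of the controls and in 51.4% and 65.8% of those of the treated libraries, beside 0.312% to 5.86% of the other barcodes. Fech, the ferrochelatase that inserts iron into the ring, stood at 14.7 in Treated 1 and 21.5 in Treated 2, against 0.244 and 0.235 elsewhere. Among the enzymes between them, Alad was at 1.96 and 1.81, against 2.71 and 2.27 in other barcodes, which lie inside its 95% Poisson intervals. Uros had 0 UMIs in the hemoglobin-dominated barcodes of every library.

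Of the 9 iron supply genes, 5 had a higher level than the other barcodes in Treated 1 and 6 in Treated 2. Over all genes with a UMI in the library the share was 22.8% and 23.8%. Over those with a UMI in the hemoglobin-dominated barcodes it was 57.6% and 52.3%, and the count in Treated 1 is near that share. Slc25a37, the mitochondrial iron importer mitoferrin, stood at 8.16 and 10.5 in Treated 1 and Treated 2 against 0.262 and 0.258 elsewhere. Isca1, of iron-sulfur cluster assembly, stood at 3.75 and 5.43 against 0.128 and 0.121. The ferritin chains Ftl1 (86.3 and 87.4) and Fth1 (68.4 and 68.1) were among the most abundant transcripts. Ftl1-ps1, a processed copy of Ftl1, was at 78.8 and 82.9, but reads of such a copy and of its parent can be exchanged, so its value is uncertain. Tfrc, the transferrin receptor by which precursors take up iron, had 1 and 2 UMIs, too few to tell its level from the 0.446 and 0.538 of the other barcodes.

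Ubiquitin and clearance genes, which act when the cell removes its organelles, were read next. Mkrn1, a ubiquitin ligase, was at 41.9 in Treated 1 and 53.7 in Treated 2 against 0.808 and 0.879 elsewhere. Ube2l6, a conjugating enzyme for ubiquitin and ISG15, was at 20.4 and 24.3 against 0.0398 and 0.0412. Ubb, which encodes ubiquitin, was at 24.8 and 37.7. Bnip3l, the receptor for removal of mitochondria in reticulocytes, was at 14.4 and 17.3 against 2.05 and 2.39. Of the 15 genes of this list, 12 had a higher level than the other barcodes in Treated 1 and 14 in Treated 2, beside 5 and 5 of the 8 heme synthesis genes, 11 and 13 of the 20 membrane genes and 6 and 6 of the 11 enzymes found in the files. Over all genes with a UMI in the library the share was 22.8% in Treated 1 and 23.8% in Treated 2, and over those with a UMI in the hemoglobin-dominated barcodes 57.6% and 52.3%, and the lists were chosen with results known. The controls gave 4 and 0 UMIs of Mkrn1 and 4 and 1 of Ube2l6, too few to set a level.

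Red cell enzymes included Bpgm, which makes the 2,3-bisphosphoglycerate that lowers oxygen affinity. It was at 18.3 in Treated 1 and 26.2 in Treated 2 against 0.0734 and 0.0887 elsewhere, and 54.4% and 67.0% of its UMIs lay in the hemoglobin-dominated barcodes. The peroxide-removing enzymes Gpx1 (36.9 and 38.3) and Prdx2 (25.6 and 28.0) were also above the other barcodes, where they stood at 5.33 and 4.77 and at 3.8 and 3.28. The glycolytic genes Aldoa (16.3 and 12.3) and Pgam1 (3.59 and 3.17) stood against 19.5 and 18.0 and against 4.97 and 5.00 in the other barcodes, values inside their 95% Poisson intervals in Treated 1 and above them in Treated 2. Carbonic anhydrase Car2 had 11 and 15 UMIs, while Car1 had 0 in the hemoglobin-dominated barcodes of every library.

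Membrane and skeleton genes were present at low counts. Epb41, which ties spectrin to actin, was at 6.36 and 9.85 in Treated 1 and Treated 2 against 0.214 and 0.239 elsewhere. Slc4a1, the band 3 anion exchanger, had 6 and 18 UMIs. Few as they were, they made up 75.0% of its UMIs in each treated library. Ank1, Dmtn, Tmod1, Add2, Rhag, Ermap and Aqp1 had 0 UMIs in the hemoglobin-dominated barcodes of Treated 1 and Treated 2. Other transcripts that set these barcodes apart were Tent5c (9.30 and 15.2), a poly(A) polymerase, and Rnf10 (14.2 and 15) and March2 (10.8 and 15.1), both ubiquitin ligases. Oaz1, the antizyme of polyamine control, reached 71.6 and 78.7 against 8.12 and 8.16.

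**Figure D4:**
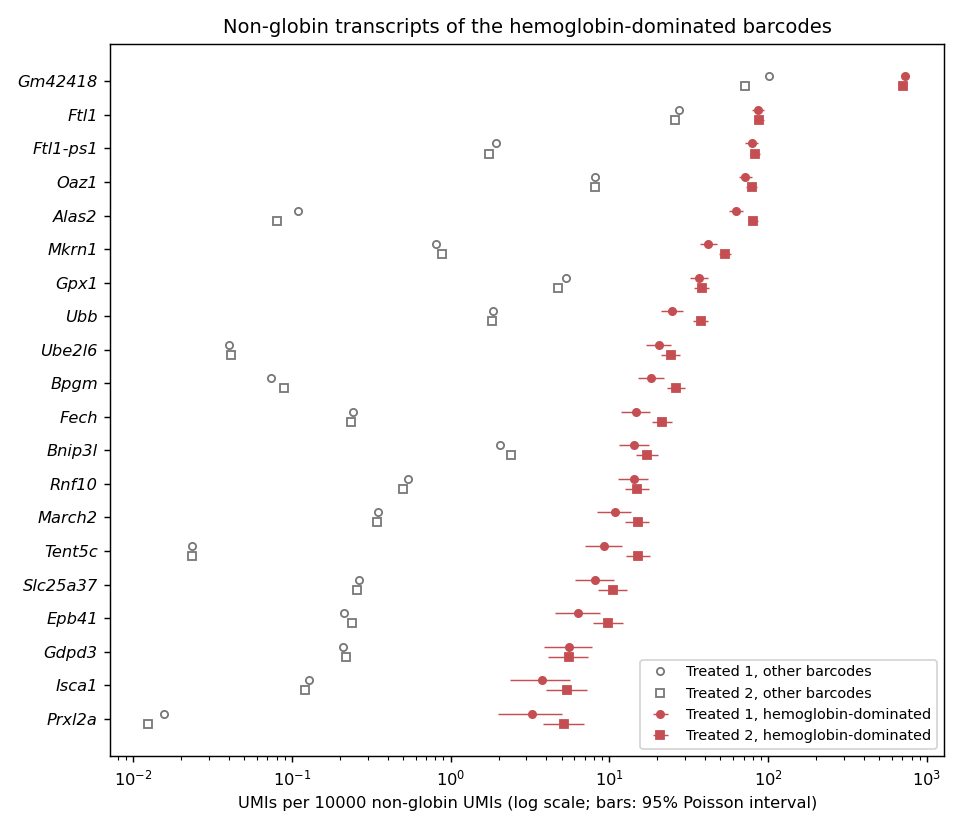
Level of 20 transcripts in UMIs per 10000 non-globin UMIs (log scale) in the hemoglobin-dominated barcodes (filled, with 95% Poisson intervals that cover counting error only) and in the other barcodes (open) of Treated 1 (circles) and Treated 2 (squares). Alas2 lies at 62.7 and 80.0 against 0.109 and 0.0809, and every transcript shown is higher in the hemoglobin-dominated barcodes of both libraries. The transcripts are a selection, and other genes of the lists, among them Alad, Aldoa and Pgam1, were not higher.

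Genes of earlier stages had few UMIs. Gata1, the master erythroid transcription factor, had 0 UMIs. Taking 3 UMIs as the limit for a count of 0, this allows a level of up to 0.489 in Treated 1 and 0.340 in Treated 2. Klf1, which activates adult beta globin, had 0 and 1 UMI, and Epor, the erythropoietin receptor, had 0 and 1. The 9 genes of this list summed to 4 UMIs in Treated 1 and 13 in Treated 2 and to 0 in both controls. These UMIs fell on 2 genes in Treated 1, Lmo2 and Zfpm1, and on 8 in Treated 2. Lmo2 is also expressed in lymphoid and myeloid cells. The summed level of the 9 genes was 0.653 and 1.47 in the treated libraries, above the 0.243 and 0.285 of the other barcodes. However, the 95% Poisson interval in Treated 1, 0.178 to 1.67, includes the value of its other barcodes. The 8 genes of dividing precursors summed to 31.6, 19.9, 18.3 and 19.0, against 28.3, 29.9, 28.1 and 27.4 in other barcodes. Within this list Top2a, a topoisomerase of dividing cells, was at 0.326 and 1.02 in the treated libraries against 2.41 and 2.39, while Ube2c, of mitotic exit, was at 2.94 and 3.06 against 2.44 and 2.81. Of the 8, 1 had a higher level than the other barcodes in each treated library. The share was 22.8% in Treated 1 and 23.8% in Treated 2 over all genes with a UMI in the library. Over genes with a UMI in the hemoglobin-dominated barcodes it was 57.6% and 52.3%. The embryonic globins Hba-x, Hbb-bh1, Hbb-bh2 and Hbb-y had 0 UMIs in all 4 libraries. The minor alpha-like genes Hbq1a and Hbq1b had 10 and 8 UMIs in Treated 1 and 17 and 19 in Treated 2, of which at least 83.3% of each library's total lay in the hemoglobin-dominated barcodes.

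Ribosomal and mitochondrial RNA differed between the libraries. The 3 nuclear RNA genes summed to 23.7, 104, 69.5 and 63.7, with the controls, on 9 and 21 UMIs, on either side of the treated libraries. Levels of ribosomal protein genes summed to 3227, 2797, 2158 and 1942, with both controls above both treated libraries. In the other barcodes the 4 values were 3029, 3048, 2856 and 2746. Mitochondrial genes summed to 89.5, 104, 249 and 460, with the treated libraries above the controls, against 166, 178, 169 and 223 elsewhere. Among all UMIs of a barcode, 10% mitochondrial was exceeded by 1 barcode of Treated 1 and 2 of Treated 2. The median barcode had 0.778%, 1.13%, 1.74% and 3.77% of its non-globin UMIs on these genes. Gm42418, a gene annotated over a ribosomal RNA unit, had the highest treated mean level outside the mitochondrial and ribosomal protein genes, at 332, 358, 723 and 707, against 101 and 71.7 in the other barcodes of Treated 1 and Treated 2. Whether it reflects rRNA priming was not tested.

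Red cell transcripts differed below and above the split at 200 genes. Alas2 was at 75.8 below and 25.1 above the split in Treated 1 and at 108 and 28.4 in Treated 2. Mkrn1 was at 51.1 and 15.7 in Treated 1 and at 70.3 and 22.5 in Treated 2. Malat1, an abundant nuclear RNA, ran the other way, with 46.5 below and 123 above in Treated 1 and 23.6 and 133 in Treated 2. The neutrophil gene S100a9 was at 19.0 below and 96.2 above in Treated 1 and at 4.51 and 83.4 in Treated 2. The split is on detected genes, so these are descriptions of 2 ends of 1 range.

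Markers of immune cells were more frequent above that split. Gates were set on keratin genes of the tumor (Krt8 and Krt18), macrophage and monocyte genes (Lyz2, C1qa, C1qb, Csf1r and Fn1) and neutrophil genes (S100a8, S100a9 and Retnlg), each at 5 UMIs, and on B cell genes (Cd79a, Cd79b and Ms4a1) and T cell genes (Cd3d, Cd3e, Cd3g and Trac), each at 2. At least 1 gate was reached by 0 of 16, 1 of 6, 30 of 469 and 23 of 412 hemoglobin-dominated barcodes. Among the 37 with 200 or more genes in each treated library, 20 and 21 reached a gate. Neutrophil markers were the most frequent, at the gate in 21 barcodes of Treated 1 and 14 of Treated 2. The 5 neutrophil genes summed to 0, 104, 74.2 and 60.9 per 10000 in the 4 libraries, with all 21 UMIs of Control 2 in barcodes of 200 or more genes. Few barcodes carried these sums. Of the UMIs of the 3 neutrophil gate genes, all 20 of Control 2 lay in 1 barcode, 385 of 449 of Treated 1 in 21 and 462 of 520 of Treated 2 in 14. The 6 macrophage and monocyte genes summed to 2.63, 0, 9.30 and 19.9, against 0.448, 0.408, 3.93 and 3.50 elsewhere, and the 5 B cell genes to 0, 0, 18.9 and 17.2, against 0.0143, 0.0145, 4.62 and 7.09. The 4 T cell genes came to 0, 0, 4 and 5 UMIs. No hemoglobin-dominated barcode reached the keratin gate, the highest holding 3 UMIs. The 4 keratins summed to 71.1, 19.9, 37.2 and 25.9, against 71.6, 39, 55.5 and 48.7 in the other barcodes. Unlike the neutrophil genes they were lower above the split, at 42.8 below and 21.4 above in Treated 1 and at 35.7 and 7.50 in Treated 2. Platelet genes came to 0, 0, 3 and 6 UMIs, all of Pf4. Without the barcodes at a gate, an alternative chosen after seeing the data, the hemoglobin-dominated share was 1.64%, 0.840%, 19.3% and 26.2%. Among barcodes with no UMI of any gate gene, Alas2 was at 26.8, 94.5, 75.3 and 103.

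Hemoglobin was also found in the barcodes of other cells. Outside the hemoglobin-dominated barcodes, those at the keratin gate alone carried 2.68, 1.79, 106 and 49.7 hemoglobin UMIs per 10000 UMIs. A hemoglobin UMI was present in 61.4%, 62.0%, 100% and 100% of them, and the median was 1, 1, 22 and 30 UMIs, from median depths of 10885, 17109, 8767 and 19550 UMIs. Macrophage and monocyte barcodes had 3.18, 1.82, 663 and 534 per 10000, at lower median depths of 1790, 3012, 1028.5 and 1859 UMIs. Their medians were 0, 0, 4 and 8 hemoglobin UMIs. With barcodes of 5% hemoglobin or more left out, their treated levels were 43.2 and 48.3. B cell barcodes had 418 in Treated 1 and 566 in Treated 2, and 44.4 and 51.5 without the 16 of 151 and 15 of 149 at 5% hemoglobin or more.

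The chains of that hemoglobin were set beside those of the same library's hemoglobin-dominated barcodes. In keratin barcodes Hba-a2 held 2.03%, 21.1%, 2.51% and 2.91% of alpha UMIs, beside 1.78%, 22%, 2.30% and 2.45% in the hemoglobin-dominated barcodes. Hbb-bt held 6.54%, 3.64%, 6.23% and 6.90% of beta UMIs there, lower in each library than the 8.19%, 4.15%, 7.59% and 8.23% of the hemoglobin-dominated barcodes. The alpha to beta ratio was 0.526, 0.600, 0.688 and 0.588 in keratin barcodes. Among barcodes under 5% hemoglobin it was 0.728 and 0.617 in keratin, 1.06 and 0.759 in macrophage and 1.08 and 0.896 in B cell barcodes of Treated 1 and Treated 2. Below 5% hemoglobin, the keratin level was 1.32, 1.79, 46.8 and 27.9 per 10000. A single keratin barcode held 1301 of the 2567 hemoglobin UMIs of Control 1, and another held 839 of the 1669 of Control 2, so the control values, the Hba-a2 share of Control 2 included, rest largely on 1 barcode each. The latter stayed below 5% hemoglobin.

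**Figure D5:**
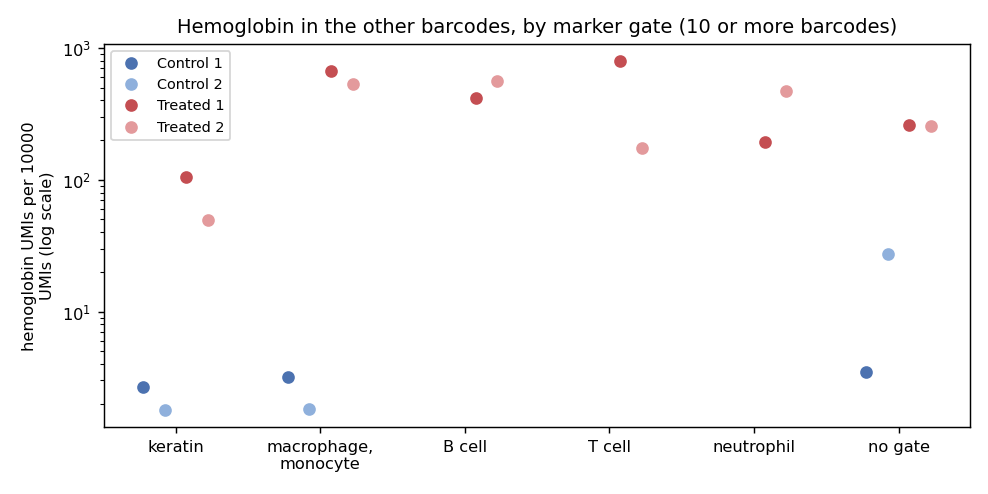
Hemoglobin UMIs per 10000 UMIs (log scale) in barcodes outside the hemoglobin-dominated ones that reach exactly 1 marker gate, or none, 1 point per library and gate, shown where a library has at least 10 such barcodes and a value above 0. The treated libraries lie above the controls at every gate with a control point, from 49.7 to 663 against 1.79 to 3.18 for keratin and macrophage gates.

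To compare the groups across genes without choosing barcodes, UMIs were summed over all barcodes of a library and tested with edgeR's quasi-likelihood test. Of 12179 genes tested, 1098 (9.02%) were higher and 184 (1.51%) lower in the treated libraries at an adjusted p under 0.05. These counts changed with DESeq2 and with a replicate block, as given in the closing section. In such sums fewer cells of a type and less RNA per cell cannot be told apart. All 4 adult globin genes were among the higher ones. They also define the hemoglobin-dominated barcodes and were chosen with earlier results known, so their p-values are no independent support. Hbb-bs summed to 10040, 5478, 297220 and 394991 UMIs, a log2 fold change of 4.91 (SE 0.26, edgeR adjusted p = 4.09e-10). Hba-a1 summed to 6804, 2814, 214977 and 251741 UMIs, a log2 fold change of 5.03 (SE 0.31, edgeR adjusted p = 3.35e-09). Hbb-bt changed by 5.14 (SE 0.40) and Hba-a2, where Control 2 alone had 781 UMIs, by 3.13 (SE 0.43). With 1 control left out these became 6.41 and 2.32 (without Control 1) and 4.46 and 4.96 (without Control 2). For all 4 genes both treated sums lay above both control sums, and the share of all genes that do so is not given here.

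Red cell genes outside globin were also among those that passed. Alas2 rose from 20 and 12 to 524 and 811 UMIs (log2 fold change 4.80, SE 0.25, edgeR adjusted p = 3.90e-10). Ube2l6 rose by 3.89 (SE 0.31), Tent5c by 4.05 (SE 0.44) and Bpgm by 1.72 (SE 0.22). Fech (0.51, edgeR adjusted p = 0.0224) and Mkrn1 (0.43, edgeR adjusted p = 0.0323) rose by less, and these calls were not stable. Mkrn1 lost its call with DESeq2 (adjusted p = 0.0746), with no filter on low counts (edgeR adjusted p = 0.0596) and without Control 1 or Control 2. Its log2 fold change ranged from 0.34 to 0.52 with 1 library left out. Fech lost its call with DESeq2 (adjusted p = 0.120) and without Control 2, and its log2 fold change ranged from 0.43 to 0.60. In Treated 1 and Treated 2, 22.4% and 38.6% of Fech UMIs and 19.9% and 29.6% of Mkrn1 UMIs lay in the hemoglobin-dominated barcodes. Counts over the lists were 2 of 8 heme synthesis genes higher, 0 of 9 iron supply genes, 1 of 8 tested membrane genes (Epb41), 1 of 9 tested red cell enzymes (Bpgm), 6 of 13 tested ubiquitin and clearance genes and 3 of 5 tested genes of the list of erythroid transcription factors and receptor (Bcl11a, Lmo2 and Nfe2, but not Zfpm1 or the receptor Epor). None of these genes was lower. Their median log2 fold changes were 0.04, 0.00, -0.04, -0.05, 0.43 and 2.43, beside -0.00 over all genes tested. The lists were chosen with results of these libraries known. Bcl11a and Lmo2 are also expressed in lymphoid and myeloid cells, and all 5 neutrophil, 6 macrophage, 5 B cell and 4 T cell markers were higher in the same fit. Their part in the red cell lists was not tested.

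Once the hemoglobin-dominated barcodes were taken out, the test over the other barcodes called 8.64% of 12153 genes higher and 1.34% lower. Since these barcodes were set apart by their share of the 4 globin genes, the log2 fold changes of those genes here, 5.52 for Hba-a1, 3.42 for Hba-a2, 5.15 for Hbb-bs and 5.46 for Hbb-bt, are a description and no test. With 1 library left out Hba-a2 ranged from 2.58 to 5.66 and Hbb-bt from 4.87 to 6.44. Alas2 had 3, 3, 140 and 104 UMIs in the other barcodes (log2 fold change 4.75, SE 0.41, edgeR adjusted p = 3.59e-07). Bpgm gave 0.37 (edgeR adjusted p = 0.319), Fech -0.01 (edgeR adjusted p = 0.976) and Mkrn1 0.02 (edgeR adjusted p = 0.943), and none of these passed. Ube2l6 (2.22, edgeR adjusted p = 0.00075) and Tent5c (2.97, edgeR adjusted p = 0.0014) did pass, although Ube2l6 gave 1.29 (edgeR adjusted p = 0.0787) when only barcodes under 5% hemoglobin with at least 200 genes were kept. Over the other barcodes 1 of 8 heme synthesis genes, 4 of 12 tested ubiquitin and clearance genes and 3 of 5 tested genes of the transcription factor and receptor list were higher. The counts were 0 of 9 iron supply genes, 0 of 8 tested membrane genes and 0 of 9 tested red cell enzymes. These fits share all 4 libraries with the fit above.

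The calls over all barcodes depended on Treated 2. Without that library edgeR called 0 genes, with 1415 at an unadjusted p under 0.05, and DESeq2, an added alternative, called 180 higher and 22 lower. The log2 fold changes of Hba-a1 (4.99) and Hbb-bs (4.77) then stood close to those of the full fit, with edgeR adjusted p = 0.127 and 0.104. Over the other barcodes, 620 genes were higher and 68 lower without Treated 2. With DESeq2 on all 4 libraries Hba-a2 no longer passed over all barcodes (DESeq2 adjusted p = 0.0795).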

How the data were processed

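Single-cell RNA libraries of 4 tumor samples (Control and Treated, n = 2 each) were used. The deposited matrices hold raw UMI counts per gene and called barcode, which the authors made with Cell Ranger 7.1.0 per the file headers. The submitters' processing notes name mm10, while the methods text names hg38. The gene IDs are of mouse. All barcodes were kept, and no doublet caller was run. The members and gene lists were chosen with earlier results of these data known. Shares carry exact Clopper-Pearson intervals and levels exact Poisson intervals, at 95%, for counting error only. Samples were compared by 2-sided exact permutation tests. UMIs summed over barcodes per library were tested with edgeR 4.0.16 (TMM, its filter on low counts, quasi-likelihood, Benjamini-Hochberg adjusted p under 0.05), a step tested on simulated data, with DESeq2 1.42.0 as an alternative. Named were genes of the lists, the 15 highest by level and the 15 highest by ratio to other barcodes in both treated libraries with at least 20 UMIs in each. A few genes of the lists are not reported here. Other alternatives were gene and share limits, thinning depths, marker gates, a replicate block and leaving out each library. No test of transcript levels within the hemoglobin-dominated barcodes was run, since it needed at least 20 in each library. Scripts used Python 3.11.15 and R 4.3.3.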

Additional observations from a re-analysis of the deposited data

How the results depend on the processing

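The treated minus control difference in hemoglobin-dominated share was 22.9 points. It was 10.0 at a hemoglobin share of at least 90% and 1.97 after the study's filters, and 19.3 to 26.5 with 1 library left out. The treated mean under 200 genes became 47.4% with the split at 100 genes and 95.3% with it at 300. The treated mean Alas2 level of 71.4 became 91.7 in barcodes under 200 genes, 116 at a hemoglobin share of at least 90% and 89.2 without any gate UMI. The mean of the treated median genes, 51 at 500 UMIs, was 90 at 1000 UMIs, a depth that left out 310 of 469 and 95 of 412 barcodes. The chain values at a share of at least 90% could not be compared, since 0 control barcodes reached it. The main edgeR fits called 1098 genes higher and 184 lower over all barcodes and 1050 and 163 over the others. DESeq2 called 673 higher and 105 lower over all barcodes and 624 and 97 over the others. With the replicate block the lower counts were 470 and 637 and the higher ones 1265 and 1467. Same-numbered libraries were hardly correlated in their deviations, so no pairing is assumed (correlations of 0.07 and 0.07). With 1 library left out, a fit in which the lone sample is assumed to vary like the other group, 0 to 1045 were higher and 0 to 277 lower over all barcodes, and 620 to 934 and 68 to 221 over the others. The zero counts came without Treated 2, where DESeq2, added after seeing the data, called 180 higher and 22 lower, and 166 and 22 over the others. Over the other barcodes Fech, near 0 throughout, ranged from -0.089 to 0.073 with 1 library left out, at 0.049 without Control 1, at 0.073 without Treated 2 and at 0.073 there with DESeq2, and Mkrn1 was at -0.048 under 5% hemoglobin. Over all barcodes the 4 globin genes kept direction in all 36 combinations of gene and alternative and lost the call in 7. Over the 10 single genes examined, globin included, 23 of 90 combinations lost it. The causes were not tested. Control levels within these barcodes rest on 22 barcodes and limit any comparison with them.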
